A study of Rattus norvegicus with 40 samples.

Results

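In spinal nerve ligation (SNL) the L5 spinal nerve is tied, while the neighbouring L4 nerve is left uncut. The 2 ganglia of the same animal then give an injured and a spared sample of the same tissue. The comparison described here asks which genes answered the ligation in opposite directions in the injured L5 and the spared L4 dorsal root ganglion (DRG), and which answered alike. It rests on all 20 arrays labelled with the SNL procedure, of 40 arrays in the series. They form 4 groups of 5 arrays, from the L5 and the L4 DRG on the ipsilateral (ligated, left) and the contralateral side.

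All rats were male Sprague-Dawley animals, with no transgene or drug treatment given in the labels. The ganglia were taken 4 weeks after surgery, when the SNL rats had been tested for tactile hypersensitivity. The 20 reference arrays came from 5 other rats with the same operation but no ligature (sham), sampled at the same 4 sites. Per the methods each array held RNA of 1 whole DRG, and the label numbers SNL 4, 8, 9, 18 and 48 were read as the rats. A whole ganglion holds neurons, glia, vessels and connective tissue, so fewer cells of a type and less RNA per cell cannot be told apart.

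A DRG holds the cell bodies of the sensory neurons of 1 spinal segment, each wrapped in satellite glia, with myelinating Schwann cells along the axons and resident macrophages between them. When a spinal nerve is tied, the axotomised neurons switch on a regeneration programme led by transcription factors such as Atf3 and Jun, raise peptides such as galanin, Npy and Vip, and reduce many of the channels and receptors that serve normal sensation. The axons of the uncut neighbour run in the sciatic nerve beside the degenerating fibres, which is why the spared ganglion is studied as a source of pain in this model. Macrophages enter the injured ganglion and fibroblasts lay down matrix there.

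Signals are the deposited MAS 5 values of an Affymetrix rat array, on a linear scale. The side effect of a ganglion is its ipsilateral minus its contralateral mean of log2(signal + 16), so that an effect of 1 is close to a doubling for a bright probe set and less for a dim one. The difference, written L5 minus L4, is the L5 side effect minus the L4 side effect. A value was called when limma's moderated test gave a Benjamini-Hochberg adjusted p under 0.05 over all 31042 probe sets. A gene is represented by its probe set with the highest mean signal, which gave 14217 genes, and probe-set levels of different genes are not compared with each other.

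The tissue labels were checked first. Of 11 neuron genes 10 lay above the median signal of all probe sets, as did 9 of 12 satellite glia genes, and 0 of 6 oligodendrocyte genes. Genes of skeletal muscle stood apart on 1 group: all 5 contralateral L5 arrays of SNL rats. Tnnc2, a troponin of fast muscle, read 880 to 1149 there and 2.69 to 12.5 on the ipsilateral L5 arrays, with no value above 12.0 on the L4 arrays of SNL rats. The summed signal of 9 muscle genes was 5620 to 6418 on those 5 arrays, 1385 to 1535 on the ipsilateral L5, 2118 to 2262 on the contralateral L4 and 3344 to 3636 on the ipsilateral L4 arrays. Of the 9 genes, 8 had a lower L5 effect and all 9 a lower L5 minus L4. Myh1 was the gene with the other course, at 981 to 1163 on contralateral L5 and 3125 to 3360 on ipsilateral L4 arrays. Outside contralateral L5 it made up most of the summed signal. Its means were 1274.5 on ipsilateral L5, 1982.6 on contralateral L4 and 3249.0 on ipsilateral L4 arrays. A gene that muscle also expresses can therefore read as lowered in the ligated L5, and the part of muscle RNA in the other L5 falls was not tested.

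Spread within groups was small. The median coefficient of variation above the median signal was 9.61% on both L5 sides, 11.08% on the contralateral and 14.77% on the ipsilateral L4 arrays. The muscle genes shared this closeness, with a coefficient of variation of 2.1% for Myh4 and 4.7% for Ckm over the 5 contralateral L5 arrays. Deviations from the group mean of arrays with the same rat number correlated between -0.06 and 0.04 across probe sets. The p-values measure the spread between these arrays, part of which may be technical. The methods describe RNA of single ganglia, and whether RNA was pooled before hybridisation was not tested. If it was, the arrays of a group do not stand for separate rats and the p-values are too small. Arrays of the L5 ganglia of SNL rats carry another title series than the other 30 arrays, and each side effect was taken within a series. L5 minus L4 of SNL rats, however, sets side effects of different series against each other, so ganglion and series cannot be told apart in it. The sham L5 and L4 arrays share the same series, so subtracting the sham difference does not separate them either. The part of the series in L5 minus L4 was not tested.

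RNA quality moved with side in both ganglia. The log2 ratio of 3′ to 5′ GAPDH signal was 0.97 ± 0.08 (SD, n = 5) contralateral and 1.61 ± 0.10 ipsilateral in L5, and 1.40 ± 0.06 and 2.35 ± 0.12 in L4 (exact two-sided permutation test, p = 0.00794 in each, the smallest p that 5 against 5 can give). The sides did not overlap in either ganglion. For actin the ratio rose from 3.59 ± 0.20 to 4.73 ± 0.26 in L5 (exact p = 0.00794), and from 4.02 ± 0.18 to 4.79 ± 0.44 in L4 (exact p = 0.0159), where the sides overlapped. The GAPDH shift was larger in L4 and the actin shift larger in L5. The part of these shifts in the side effects was not tested.

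**Figure D1:**
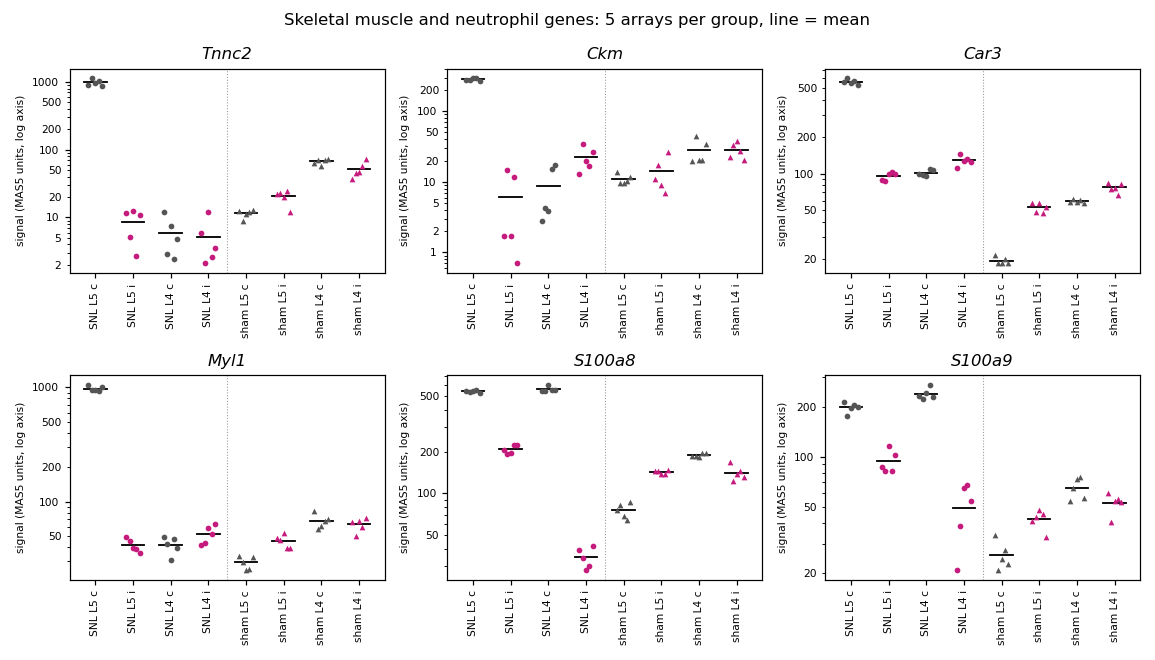
Signal (MAS 5 units, log axis) of 3 muscle genes and Car3 and of 2 neutrophil genes on each array. Circles are SNL and triangles sham arrays, grey is contralateral (c) and magenta ipsilateral (i), and lines are means of 5 arrays. Tnnc2, Ckm, Myl1 and Car3 are highest on all 5 contralateral L5 arrays of SNL rats, and S100a8 and S100a9 are high on both contralateral groups of SNL rats.

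More genes were called in the injured ganglion than in the spared one, and most genes that moved in both moved the same way. Separate fits called 14638 probe sets in L5 and 5938 in L4, and one fit of the 20 arrays 11947 and 8468. The median SE of the side effect was 0.109 in L5 and 0.16 in L4. Sham rats also had more calls in L5 than in L4, as given below. At the level of genes, 35.5% were higher and 18.9% lower in the ligated L5 than on its other side, against 11.1% and 9.98% in the spared L4. A change of at least 2-fold was found in 1391 probe sets in L5 (644 higher, 747 lower) and in 253 in L4 (59 higher, 194 lower). Of all genes, 7.26% (1032) were higher in both ganglia and 6.74% (958) lower in both, while 1.07% (152) were higher in L5 and lower in L4 and 0.64% (91) lower in L5 and higher in L4. The difference itself was called higher for 15.0% of genes and lower for 10.3%. Across all 31042 probe sets the L5 and L4 side effects correlated with r = 0.45, a description over probe sets that share the arrays and are not independent.

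Sham surgery gave side effects too, which set the scale for reading these counts. A change of at least 2-fold was found in 769 probe sets in sham L5 and in 178 in sham L4. At an adjusted p under 0.05, limma called 15618 probe sets in sham L5 and 8413 in sham L4. By the same rule 8.57% of genes were higher in both sham ganglia and 8.45% lower in both, with 0.345% and 0.513% in the opposite classes, and 12.4% had a called L5 minus L4. The counts of genes called alike thus were no larger in SNL than in sham rats. Size set the cohorts apart in part. With at least 1.5-fold in both ganglia, 159 genes were lower in both in SNL rats and 3 in sham rats, but 164 were higher in both in SNL and 191 in sham rats, with 19 in common (11.6% of the SNL and 9.95% of the sham genes). Opposite calls of at least 1.5-fold in both ganglia were made for 9 genes in SNL rats and for 0 in sham rats. Those 9, chosen after their values were seen, were Cacna2d1, Cnp, Cxcl12, Plac8, Pter, Serinc5 and Sh3gl3, higher in L5 and lower in L4, and Dgkz and Ckm, lower in L5 and higher in L4. Ckm is among the muscle genes high on the contralateral L5 arrays. Its L4 signals were dim and overlapped, at 2.76 to 17.4 contralateral and 13.1 to 34.8 ipsilateral. A dimmer probe set of Cnp and 1 of Cxcl12 were lower in L4 but not called in L5, at 0.08 and 0.09.

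The deposited scaling moves the balance of rises and falls. The median L5 effect of all probe sets was 0.121 as deposited, 0.025 after quantile normalization and 0.004 with equal medians. Of the probe sets called in L5, 64.3% were higher as deposited, 51.8% after quantile normalization and 40.8% with equal medians, and in L4 the shares were 52.9%, 46.2% and 27.5%. Genes called alike split into 1032 higher and 958 lower as deposited, 848 and 892 after quantile normalization and 402 and 1641 with equal medians. The difference was moved less, with medians of 0.038, -0.004 and -0.002 and shares higher of 57.9%, 54.6% and 47.2%. The genes that lead the opposite and alike classes below were therefore chosen among those whose signs held under all 3 scalings in both ganglia. Members of gene lists were named without that condition, and in the class of 152 genes 121 kept both signs, in that of 91 genes 90.

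**Figure D2:**
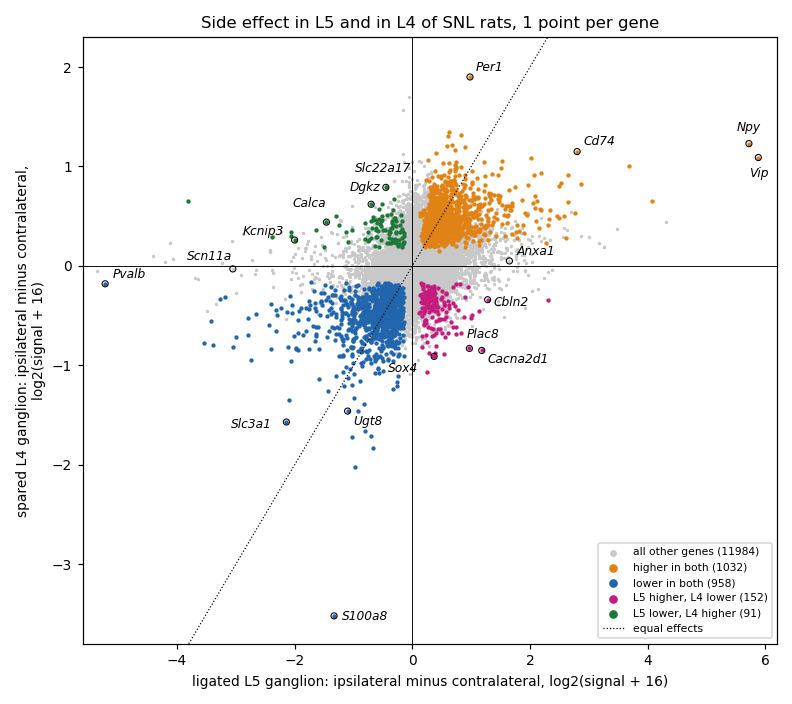
Side effect in the ligated L5 (horizontal) against that in the spared L4 (vertical) of SNL rats, as ipsilateral minus contralateral log2(signal + 16), 1 point per gene. Colours mark genes called in both ganglia and the dotted line marks equal effects. The horizontal spread is wider than the vertical, Npy and Vip lie far to the right, S100a8 far down, and the opposite classes fill the upper left and lower right.

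Genes that rose in the ligated L5 and fell in the spared L4 were led by Cacna2d1, the alpha2delta-1 calcium channel subunit that gabapentin binds. Its signals were 218, 195, 232, 213 and 200 contralateral and 501, 482, 521, 519 and 475 ipsilateral in L5. In L4 they were 145, 136, 157, 137 and 147 contralateral and 68, 80.4, 88.4, 63.7 and 66.8 ipsilateral. Every ipsilateral L5 array stood above every contralateral one, and every ipsilateral L4 array below. The effects were 1.18 in L5 and -0.85 in L4, with L5 minus L4 of 2.03 (SE 0.10, adjusted p = 3.32e-14). The fall in L4 was also present in sham rats, at -0.65 (adjusted p = 0.000211), whereas the sham L5 effect was 0.01. With the sham difference subtracted, L5 minus L4 was 1.36 (SE 0.16, adjusted p = 5.19e-09).

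Cbln2, a secreted organiser of synapses, had no called sham effect in either ganglion. Its signals rose in L5 from 676, 681, 680, 664 and 647 to 1636, 1611, 1630, 1712 and 1664. In L4 they fell from 544, 539, 580, 521 and 519 to 348, 441, 476, 452 and 409. Neither pair of groups overlapped, and the sham effects were 0.12 in L5 and -0.02 in L4. L5 minus L4 was 1.62 (SE 0.09, adjusted p = 6.3e-14). Sox4, a transcription factor of the Sox family, showed the deepest L4 fall of these 8 genes. It read 396, 316, 351, 369 and 385 contralateral and 468, 490, 475, 460 and 471 ipsilateral in L5, and 235, 238, 303, 245 and 245 and 132, 144, 97.5, 122 and 143 in L4. The L4 effect was -0.91, and the sham effects of 0.03 in L5 and -0.11 in L4 were not called. Of its 6 dimmer probe sets 1 was also lower in L4, and 1 was higher in both ganglia.

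The other 5 genes of this class were Plac8, with L5 and L4 effects of 0.97 and -0.83, Cxcl12, the chemokine ligand of Cxcr4, with 0.82 and -0.67, Pter, with 0.75 and -0.68, the growth factor Igf1, with 0.87 and -0.51, and Serinc5, with 0.75 and -0.61. All 5 had a called fall in the sham L4 as well, between -0.63 for Plac8 and -0.28 for Serinc5. In the whole class of 152 genes, 57 were called lower and 8 higher in the sham L4, against 28 called higher and 49 called lower in the sham L5. After subtraction of the sham difference 130 of the 152 still had a called L5 minus L4 of the same sign. Of the 83 genes with further probe sets, 3 had one that showed the same pair of calls and 26 had one called the other way in at least 1 ganglion.

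**Figure D3:**
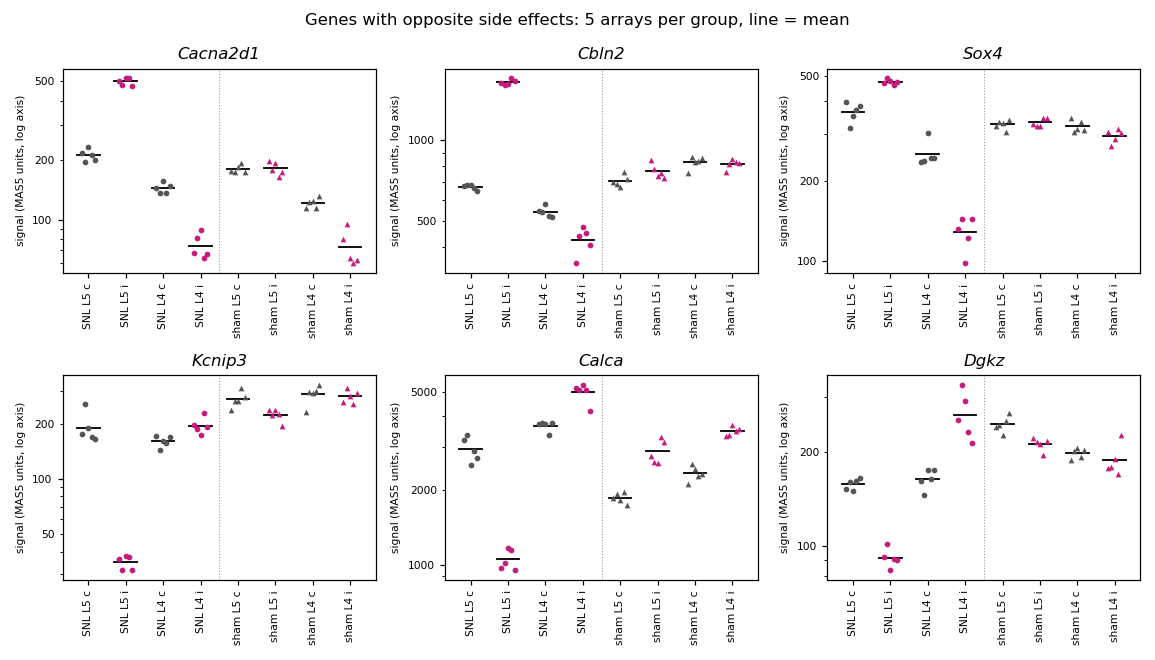
Signal (MAS 5 units, log axis) of 6 genes with opposite side effects on each array, SNL as circles and sham as triangles, contralateral (c) grey and ipsilateral (i) magenta, lines at the mean of 5 arrays. Cacna2d1, Cbln2 and Sox4 are raised in the ligated L5 and lowered in the spared L4, and Kcnip3, Calca and Dgkz the reverse. The sham L4 arrays repeat the fall of Cacna2d1 and the rise of Calca.

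The reverse class, lower in the ligated L5 and higher in the spared L4, held neuronal signalling genes. Kcnip3, a calcium-binding partner of Kv4 potassium channels, read 175, 255, 189, 168 and 165 contralateral and 36.3, 31.7, 37.8, 37.5 and 31.6 ipsilateral in L5. In L4 it read 171, 143, 161, 156 and 170 and 196, 186, 173, 228 and 192. The fall in L5 was large, with a ratio of means of 0.184, and the rise in L4 small, with a ratio of 1.22. L5 minus L4 was -2.26 (SE 0.14, adjusted p = 7.75e-13), and the sham effects were -0.26 in L5 and -0.04 in L4. The L4 rise alone, 0.26, was close to the threshold (adjusted p = 0.0442). Kcnip1, of the same family, gave -1.09 and 0.24, although a dimmer probe set of Kcnip1 was lower in both ganglia. With equal medians neither Kcnip3 nor Kcnip1 was called higher in L4, although the signs held.

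Calca, which encodes the nociceptor peptide CGRP, fell in L5 from 3182, 3344, 2542, 2873 and 2705 to 972, 1022, 1169, 1154 and 952. In L4 it rose from 3709, 3750, 3687, 3335 and 3721 to 5169, 5081, 5330, 5086 and 4182. The groups did not overlap in either ganglion, and L5 minus L4 was -1.90 (SE 0.11, adjusted p = 2.41e-13). Sham rats showed a rise in both ganglia, of 0.61 in L5 and 0.56 in L4. A second probe set of Calca fell in both ganglia of SNL rats, by 3.11 in L5 and by 0.76 in L4, so the L4 direction of this gene rests on the probe set.

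Dgkz and Dgkh encode diacylglycerol kinases, which end diacylglycerol signalling. Dgkz read 152, 160, 150, 161 and 165 contralateral and 91.8, 101, 83.3, 90.5 and 90 ipsilateral in L5, and 161, 145, 175, 163 and 175 and 252, 328, 290, 231 and 214 in L4. Its effects of -0.70 and 0.62 exceeded 1.5-fold in both directions, with sham effects of -0.20 and -0.07. Dgkh gave -1.03 and 0.36, beside a sham L4 rise of 0.42. Slc22a17, a receptor of lipocalin 2, had the largest L4 rise of these 8, 0.79, with -0.45 in L5, and the same L5 fall of -0.45 in sham rats. Rprm, an inhibitor of the cell cycle, gave -1.63 and 0.36.

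Car3 had the most negative L5 minus L4 of the 8, -2.67 (SE 0.10, adjusted p = 4.74e-17). Its L4 rise was 0.29 (adjusted p = 0.0391), beside sham rises of 0.96 in L5 and 0.30 in L4. A dimmer probe set of Car3 was lower in L5 and, at -0.20, not called in L4. Car3 encodes the carbonic anhydrase of muscle, and it read 533 to 606 on the 5 contralateral L5 arrays, those on which the muscle genes were high, against 87 to 103 ipsilateral and 95.7 to 109 on contralateral L4 arrays. In the class of 91 genes, 24 were also called higher and 6 lower in the sham L4, and 72 kept a called L5 minus L4 of the same sign once the sham difference was subtracted. In the sham L5, 34 of the 91 were called lower and 21 higher. Of the 32 genes with further probe sets, 1 had one with the same pair of calls. Another probe set was called the other way in at least 1 ganglion for 11.

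Genes higher in both ganglia included the injury peptides. Npy, a peptide of axotomised sensory neurons, rose in L5 from 35.2, 38.2, 28.6, 33.4 and 26.7 to 2849, 2419, 2484, 2401 and 2483. In L4 it rose from 46.6, 48.4, 54.4, 40.7 and 44.9 to 123, 127, 153, 125 and 132. The direction was shared but the size was not, with a ratio of means of 78 in L5 and 2.81 in L4. Sham rats showed a rise of the L4 kind in both ganglia, 1.92 in L5 and 1.71 in L4, so the L4 rise of Npy was not particular to ligated rats. Vip, another peptide of injured neurons, gave 5.88 and 1.09, with sham effects of 2.26 and 1.09.

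Cd74, the chaperone of MHC class II molecules, rose in both ganglia, with sham effects near 0. It went from 321, 349, 337, 329 and 335 to 2575, 2269, 2501, 2407 and 2396 in L5 and from 333, 321, 344, 299 and 346 to 789, 725, 767, 687 and 791 in L4. The sham effects were 0.04 and -0.10. Col3a1, the fibrillar collagen of soft tissue, read 740, 759, 691, 741 and 749 and 3476, 2780, 3091, 2957 and 2931 in L5, and 1167, 1149, 1252, 1201 and 1316 and 2730, 2768, 2642, 2457 and 2425 in L4. All ipsilateral arrays lay above all contralateral arrays in both ganglia, at ratios of means of 4.14 and 2.14, and sham effects were 0.05 and -0.13.

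Egr2, a transcription factor of myelinating Schwann cells, and Ccn2, a matricellular protein, rose in both. Egr2 gave 1.21 in L5 and 1.05 in L4, a difference of 0.17 (SE 0.08, adjusted p = 0.158) with a 95% interval from 0.00 to 0.33. Ccn2 gave 1.52 and 1.06, a difference of 0.46 (SE 0.12, adjusted p = 0.00617) with a 95% interval from 0.21 to 0.70, and fell in the sham L4 (-0.47). Sox11, a transcription factor of developing and regenerating neurons, gave 1.51 and 0.98, beside a sham L5 rise of 1.03. Per1, a component of the circadian clock, was the gene of these 8 with the larger rise in L4, 0.98 in L5 and 1.90 in L4, and L5 minus L4 of -0.92 (SE 0.31, adjusted p = 0.0335). Leaving out single arrays moved this value between -1.17 and -0.74 and ended the call for 8 of 20 arrays.

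**Figure D4:**
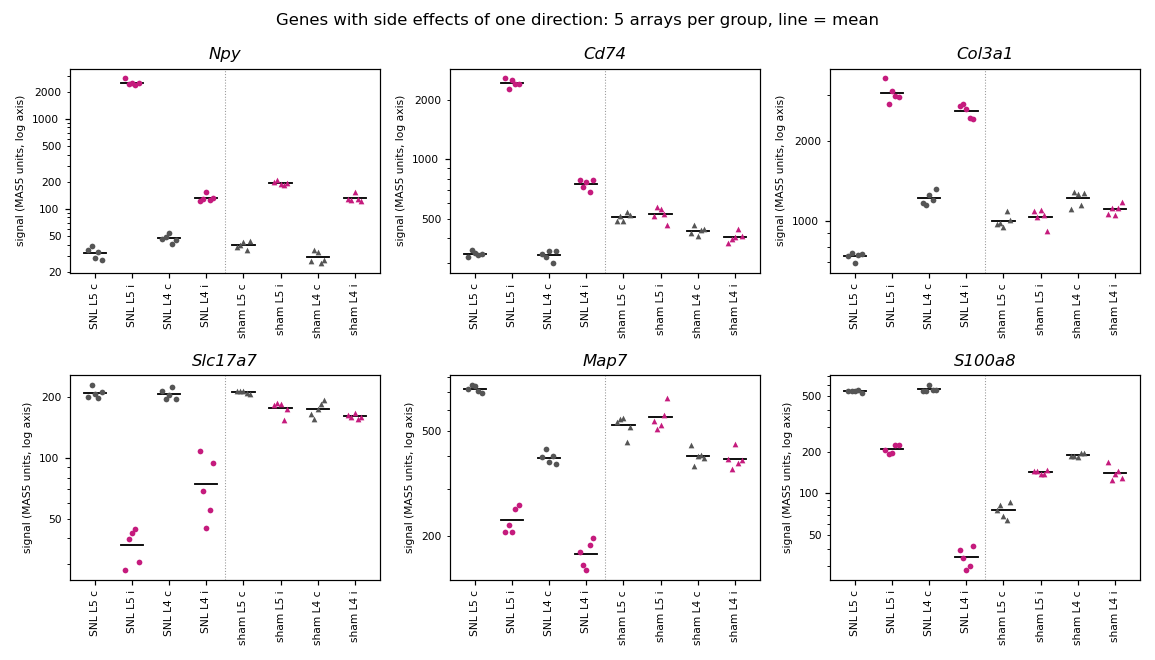
Signal (MAS 5 units, log axis) of 6 genes with side effects of one direction on each array, SNL as circles and sham as triangles, contralateral (c) grey and ipsilateral (i) magenta, lines at the mean of 5 arrays. Npy, Cd74 and Col3a1 are higher and Slc17a7, Map7 and S100a8 lower on the ipsilateral side of both SNL ganglia, and the sham arrays show the rise of Npy.

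Genes lower in both ganglia included transporters, a glutamate pathway enzyme and a neutrophil gene. Slc17a7, the vesicular glutamate transporter VGLUT1 of large sensory neurons, read 202, 231, 209, 198 and 212 contralateral and 27.8, 39.6, 42.7, 44.5 and 30.7 ipsilateral in L5. In L4 it read 215, 196, 206, 224 and 196 and 109, 69, 44.9, 55.4 and 94.5. The spared ganglion thus had a ratio of means of 0.36 against 0.176 in the injured one, with sham effects of -0.25 and -0.11. A dimmer probe set of Slc17a7 was lower in L5 but higher in L4. Slc3a1, a subunit of a cystine and amino acid transporter, gave -2.14 and -1.57, with sham effects of -0.04 and -0.20.

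Map7, a microtubule-associated protein, fell from 721, 745, 737, 705 and 694 to 206, 219, 207, 252 and 262 in L5. In L4 it fell from 398, 425, 380, 400 and 373 to 173, 155, 148, 184 and 196. No arrays of the sides overlapped, and the sham effects were 0.10 and -0.04. Ccnk and Got1 fell by nearly the same amount in both. Ccnk, which encodes cyclin K, gave -1.16 and -1.21, a difference of 0.05 (SE 0.11, adjusted p = 0.837) with a 95% interval from -0.18 to 0.28. Got1, the cytosolic aspartate aminotransferase, gave -1.10 and -1.13, with an interval of the difference from -0.25 to 0.30. Ugt8, the enzyme that makes galactosylceramide for myelin, gave -1.10 and -1.46. Actr2-ps1 gave -1.30 and -1.11, but as a pseudogene it may share probes with Actr2, so its identity is uncertain.

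S100a8, a calcium-binding protein of neutrophils, fell more in the spared than in the injured ganglion. It read 545, 541, 546, 555 and 530 and 204, 192, 195, 223 and 222 in L5, and 548, 549, 605, 557 and 556 and 38.9, 34.2, 28, 30.1 and 42.2 in L4. Its contralateral signal in SNL rats exceeded that of every sham array, with 184 to 195 on the highest sham group and 64.9 to 86.1 on the lowest. Of 8 neutrophil genes measured, 7 were lower in both ganglia, and their summed signal was 1163 to 1245 contralateral and 534 to 555 ipsilateral in L5 and 1332 to 1458 and 250 to 337 in L4. Hbb, a globin of red blood cells, also fell in L4, by 1.17 against 0.26 in L5. Of 5 red blood cell genes measured, 2 were lower in L5 and 1 in L4. The blood content of the ganglia was not measured, and its part was not tested.

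An amount was considered alike when the 95% interval of L5 minus L4 lay within 0.5 of 0. This held for 503 of the 1032 genes higher in both (48.7%) and for 543 of the 958 lower in both (56.7%). The difference was called for 259 and 384 genes. Where it was called, the L5 effect was the larger one in 232 of 259 genes and in 279 of 384. The effects of both ganglia had medians of 0.54 and 0.48 in the class higher in both, and of -0.54 and -0.47 in the class lower in both.

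Some genes changed in 1 ganglion while the interval of the other effect lay within 0.25 of 0. Above the median signal and with sides that did not overlap, 207 such genes were higher and 201 lower in L5. Anxa1, an anti-inflammatory annexin, read 287, 296, 295, 300 and 308 and 963, 940, 963, 997 and 975 in L5, and 319, 286, 332, 273 and 294 and 341, 299, 280, 308 and 334 in L4. The L4 sides overlapped, and the L5 sides were apart at a ratio of means of 3.25. Dcn and Col15a1, of the extracellular matrix, gave L5 effects of 1.45 and 1.33, Mgp, an inhibitor of calcification, 1.32, and Jun, a core injury transcription factor, 1.39 against 0.00 in L4.

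Scn11a, the sodium channel Nav1.9 of nociceptors, led the falls found in L5. It read 1067, 1178, 1082, 1175 and 1089 and 125, 101, 136, 131 and 115 in L5, and 791, 885, 863, 809 and 827 and 885, 747, 834, 818 and 802 in L4. The L5 signal fell to a ratio of 0.109, while the L4 effect was -0.03, and L5 minus L4 was -3.02 (SE 0.09, adjusted p = 3.49e-19). Nmb, a bombesin-like peptide of sensory neurons, gave -2.92, the sorting receptor Sorl1 -2.65, the potassium channel subunit Kcns3 -2.36 and Ifitm10 -2.01 in L5. For Sorl1, 1 of 7 dimmer probe sets was higher in L5 and another was lower in both ganglia, at -2.50 and -0.61.

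Changes that the spared L4 alone showed were smaller, with 72 genes higher and 146 lower by the same rule. Fastkd2, a mitochondrial RNA-binding protein, read 172, 147, 179, 135 and 161 contralateral and 340, 240, 374, 266 and 248 ipsilateral in L4. In L5 it read 132, 129, 138, 113 and 122 and 158, 124, 124, 142 and 131. The L4 effects of the 5 highest ran from 0.64 for Phactr3 and 0.65 for Rbm20, a splicing factor, through 0.72 for Fhip2a and 0.81 for Fastkd2 to 0.86 for the non-coding RNA H19. For H19 and Rbm20 the L5 minus L4 was no longer called after the sham difference was subtracted.

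P4hb, the protein disulfide isomerase of the endoplasmic reticulum, led the falls together with Dennd6a. P4hb read 781, 837, 769, 878 and 863 contralateral and 452, 429, 395, 365 and 455 ipsilateral in L4, and 883, 814, 816, 836 and 820 and 1009, 916, 813, 876 and 849 in L5. Its L4 effect was -0.95 and its sham L4 effect 0.20. Dennd6a gave -1.04 in L4, Fam53c -0.78, Ostc, a subunit of the oligosaccharyltransferase, -0.72 and Cstf2t, a polyadenylation factor, -0.70. A second probe set of Dennd6a was not called in L4 and was higher in L5.

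P2rx4, an ATP-gated channel, was not called in the difference. It read 45.1, 43, 44.9, 35.1 and 54.4 and 51.1, 51.6, 54.2, 75.1 and 64.5 in L5, and 48.5, 43.3, 40.6, 74.5 and 56.2 and 56.5, 32.7, 41.1, 41.9 and 55.2 in L4. Its L5 minus L4 was 0.47 (SE 0.20, adjusted p = 0.107), with a 95% interval from 0.06 to 0.87.

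The gene lists place these genes among their pathways. Over all 14217 genes the median effect was 0.13 in L5 and 0.07 in L4, and the median L5 minus L4 was 0.05, against which each list is read. Of all genes 35.5% were higher and 18.9% lower in L5, and 11.1% higher and 9.98% lower in L4. L5 minus L4 was higher for 15.0% of all genes and lower for 10.3%. Each list count below stands beside these shares. Of 17 injury transcription factors measured, 14 were higher in L5 and 7 in L4, and 9 had a higher and 0 a lower L5 minus L4, with medians of 0.60 in L5 and 0.26 in L4. Atf3, the usual marker of axotomised neurons, went from 73.4, 76.8, 78.6, 61.5 and 89 to 1112, 1172, 1146, 1178 and 1214 in L5. In L4 it went from 60.7, 65.2, 71, 87.5 and 62.7 to 83.3, 140, 162, 197 and 226, with 1 ipsilateral array inside the contralateral range. Myc and Smad1 followed Jun, with L5 effects of 1.23 and 0.88 against 0.26 and -0.14 in L4. Cebpb, Cebpd, Nfil3 and Srf were higher in both ganglia, as were Atf3 and Sox11.

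Of 38 injury-induced peptides and effectors, 30 were higher in L5 and 10 in L4, beside 35.5% and 11.1% of all genes. L5 minus L4 was higher for 27 and lower for 2, beside 15.0% and 10.3% of all genes. Gal, which encodes galanin, rose from 60.7, 79.3, 90.3, 102 and 87.3 to 1815, 1553, 1656, 1696 and 1606 in L5. In L4 its effect was 0.65, and sides overlapped. Reg3b, a secreted lectin-like protein of injured neurons, gave 4.31 in L5 and 0.44 in L4. The median of the list was 0.98 in L5 and 0.13 in L4.

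Of 32 nociceptor genes, 20 were lower in L5 and 11 in L4, beside 18.9% and 9.98% of all genes, and the numbers in the ganglia were not tested against each other. In this list L5 minus L4 was lower for 18 and higher for 1, Gfra3, a receptor of the GDNF family. Trpv1, the capsaicin receptor, read 389, 435, 378, 399 and 410 and 102, 90.9, 85.5, 99.8 and 82 in L5, and 254, 264, 244, 274 and 252 and 312, 292, 283, 287 and 295 in L4. Its L4 sides did not overlap, with the ipsilateral arrays higher, but the L4 effect of 0.18 was not called. P2rx3, an ATP receptor of nociceptors, was the contrary case, lower in both at -0.88 in L5 and -0.98 in L4. Sst, Htr3b, Htr3a, Tac1 and Calcb were lower in both but further in L5, with Htr3b at -3.54 and -0.78. The 11 neuron genes of the tissue check fell too. Of these 7 were lower and 2 higher in L5, and 4 lower and 3 higher in L4. Their L5 minus L4 was lower for 6 and higher for 0. Their medians were -0.46 in L5 and -0.25 in L4, against -0.75 and -0.06 for the nociceptor list. The part of a general neuronal fall in the neuronal lists was not tested.

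Of 15 large-fibre genes, 12 were lower in L5, 7 were lower and 4 higher in L4, and 6 were lower in both. The shares of all genes were 18.9% lower in L5, 9.98% lower and 11.1% higher in L4, and 6.74% lower in both. L5 minus L4 was lower for 10 of the 15 and higher for 1, beside 10.3% and 15.0% of all genes. Pvalb, parvalbumin of proprioceptors, fell in L5 from 1478, 1368, 1122, 1162 and 1261 to 19.9, 13.3, 19.4, 16.4 and 24.2. In L4 it read 1365, 1201, 1407, 1256 and 1343 and 1109, 1142, 1214, 1139 and 1163, a called but small effect of -0.18. Parvalbumin is also a protein of fast muscle, and the contralateral L5 arrays were those with high muscle signal. The part of muscle RNA in this fall was not tested. The neurofilaments Nefh, Nefl and Nefm and the neurotrophin-3 receptor Ntrk3 were of the opposite class, but the L4 sign of Nefl turned from 0.26 to -0.27 after quantile normalization. Nefh read 1970, 2318, 1808, 1993 and 1741 and 1247, 1146, 1253, 1272 and 1178 in L5, and 2833, 2644, 2957, 2642 and 2294 and 3453, 3895, 3955, 3068 and 3122 in L4. In sham rats Nefh, Nefl and Nefm were higher in both ganglia, with L4 effects of 0.62, 0.75 and 0.69, above their L4 effects of 0.38, 0.26 and 0.36 in SNL rats.

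Of 34 potassium channel genes, 24 were lower in L5 and 6 in L4, and 7 were higher in L4, a count that was 4 after quantile normalization and 0 with equal medians. Over all genes 18.9% were lower in L5, and 9.98% were lower and 11.1% higher in L4. In this list L5 minus L4 was lower for 20 and higher for 0, beside 10.3% and 15.0% of all genes. Of the 34 genes 6 were lower in L5 and higher in L4, beside 0.64% of all genes: Kcnip1, Kcnip3, Kcnc4, Kcnq5, Kcns1 and the Kv4 partner Dpp6. Kcns1, a silent modifier subunit of large neurons, read 106, 120, 116, 106 and 111 and 22, 15.3, 11.5, 11.8 and 12.3 in L5, and 124, 132, 141, 109 and 114 and 166, 137, 218, 145 and 147 in L4. The ratio of means was 0.13 in L5 and 1.31 in L4. Dpp10 and Kcnip4, also Kv4 partners, fell in both, at -3.27 and -0.33 and at -3.39 and -0.80. Of 16 calcium channel subunits L5 minus L4 was lower for 5 and of 9 sodium channel genes for 3, beside 10.3% of all genes. Scn1a, among the 3, gave -1.39 and -0.21. Of 24 genes of synaptic vesicle release, 13 were lower in L5 and 6 in L4, beside 18.9% and 9.98% of all genes. Vamp2 fell further in L4, by 1.72 against 1.02 in L5.

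**Figure D5:**
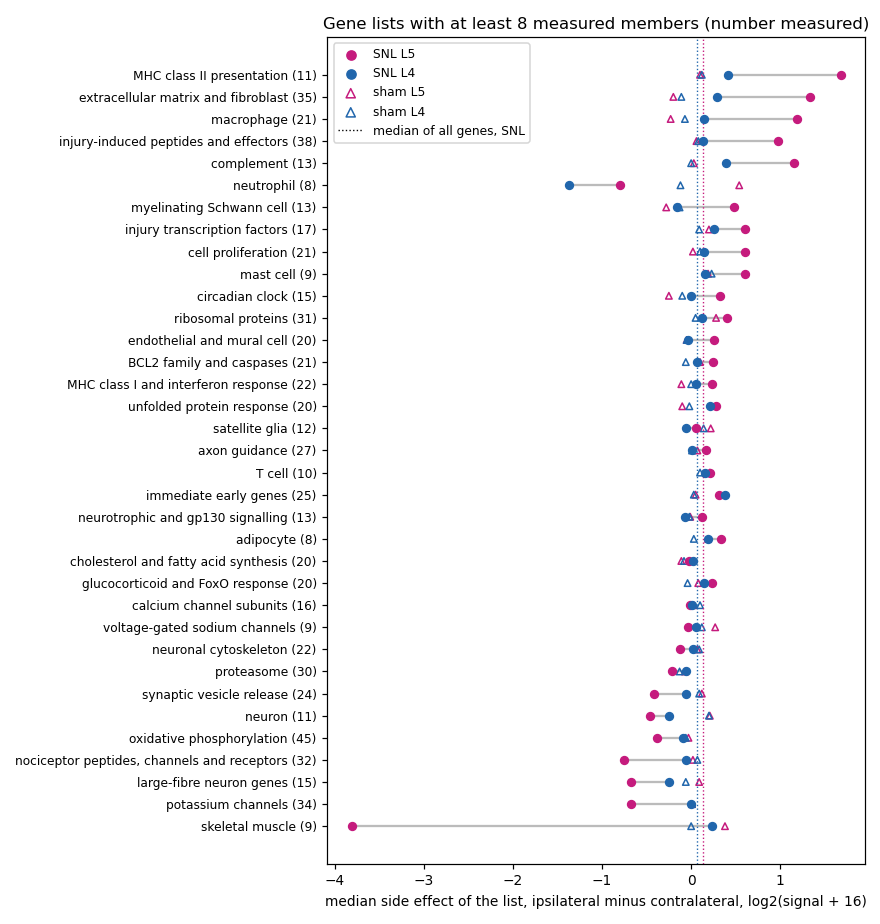
Median side effect (ipsilateral minus contralateral log2(signal + 16)) of each gene list with at least 8 measured members, filled circles for SNL and open triangles for sham, magenta for L5 and blue for L4. Dotted lines are the medians of all genes. Macrophage, MHC class II, complement and matrix lists lie to the right and several neuronal lists to the left in L5, with the L4 median near 0 for most, and the muscle and neutrophil lists stand apart.

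Macrophage, MHC class II, complement and matrix genes were mostly higher in the injured ganglion, where 35.5% of all genes were. Of 21 macrophage genes 17 were higher in L5 and 1, Csf1r, in L4, with medians of 1.19 and 0.14. Of 11 genes of MHC class II presentation, 9 were higher in L5 and 6 in L4. RT1-Ba, a class II chain, read 212, 198, 207, 204 and 218 and 1519, 1265, 1242, 1406 and 1391 in L5, and 235, 256, 220, 279 and 245 and 314, 290, 320, 265 and 330 in L4. A dimmer probe set of RT1-Ba rose further in L4, at 0.61 in L5 and 1.67 in L4, with a called L5 minus L4 of -1.05. RT1-Bb also ran against the values shown, with an L5 effect of -0.05 that was not called and an L4 rise of 1.70. These loci are close relatives, so probe sets may share transcripts. Of 13 complement genes 10 were higher in L5 and 7 in both, among them C3 at 2.64 and 0.91 and C1s at 2.77 and 0.53. Other immune lists were mixed. Of 9 mast cell genes 6 were higher and 1 lower in L5, and 0 were called in L4, but 0 lay above the median signal. Of 22 genes of MHC class I and the interferon response 10 were higher and 3 lower in L5, and of 10 T cell genes 4 were higher and 1 lower. Of 2 B cell genes 0 were called, and 7 of 8 neutrophil genes were lower in both ganglia.

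Of 35 matrix and fibroblast genes, 34 were higher in L5, 18 in L4 and 17 in both, against 7.26% of all genes higher in both. The medians were 1.33 in L5 and 0.29 in L4, beside -0.20 and -0.11 in sham rats. Fn1, fibronectin, gave 2.32 and 0.47, and Col6a3 2.56 and 0.29. Pdgfrb, a receptor of pericytes and fibroblasts, had the larger L4 value, 0.72 in L5 and 1.01 in L4. Fbln2 was lower in L5 and higher in L4.

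Glial genes held both patterns. Of 13 myelinating Schwann cell genes 11 were higher in L5, and L5 minus L4 was higher for 8 and lower for 0. Cnp, an enzyme of myelin-forming cells, read 842, 863, 877, 868 and 828 and 1313, 1211, 1300, 1338 and 1351 in L5, and 459, 442, 487, 448 and 450 and 310, 285, 298, 283 and 231 in L4, and Mal, a myelin proteolipid, shared the opposite calls. Of 12 satellite glia genes 5 were higher and 3 lower in L5, and 1 was higher and 3 lower in L4. Over all genes 35.5% were higher and 18.9% lower in L5, and 11.1% and 9.98% in L4. The satellite glia counts in L5 were near these shares. Slc1a3, the glutamate transporter GLAST, and Cd9 were higher in L5 and lower in L4 as deposited, at 0.20 and -0.34 and at 0.17 and -0.32. With equal medians their L5 effects were -0.01 and -0.04, and a dimmer probe set of Slc1a3 had the reverse calls, -0.52 in L5 and 0.42 in L4. Gfap, raised in reactive glia, gave 2.70 and 0.54. Fabp7, a fatty acid binding protein of glia, fell in L5, -1.31, with 0.09 in L4.

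Of 25 immediate early genes 14 were higher in L5, 13 in L4 and 12 in both, beside 35.5%, 11.1% and 7.26% of all genes. The L4 median of 0.38 was above the L5 median of 0.31. Dusp1, a MAP kinase phosphatase, was at 0.83 in L5 and 1.32 in L4, and Klf2, a flow-responsive transcription factor, at 0.63 and 1.35. The sham medians of this list were 0.05 and 0.03. Of 45 genes of oxidative phosphorylation 40 were lower in L5 and 12 in L4, with medians of -0.38 and -0.09. Over all genes 18.9% were lower in L5 and 9.98% in L4. The counts of the 45 were 37 and 9 after quantile normalization, and 41 and 24 with equal medians. Of 30 proteasome genes 19 were lower in L5 and 11 in L4, all 11 in both, beside 18.9%, 9.98% and 6.74% of all genes. Of 31 ribosomal protein genes 29 were higher in L5 and 8 in L4, beside 35.5% and 11.1% of all genes, and with equal medians 15 and 6 were. The median L5 effect of the list was 0.40 in SNL and 0.28 in sham rats. Rps3, Rps9, Rpl24 and Rpl27 were among the genes higher in L5 and lower in L4, although the L5 effects of Rps9 and Rpl24 turned to -0.05 and -0.07 with equal medians, and processed copies of ribosomal genes make such probe sets uncertain. Of 21 proliferation genes 16 were higher in L5 and 3 in L4, beside 35.5% and 11.1% of all genes. In this list Ccnd1 gave 0.96 and -0.19 and Top2a 0.97 and -0.02.

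Promoters were searched to show whether members of a class share a site of the injury factors. The window ran from 250 bases before to 50 after each gene's start (RefSeq, GRCr8), and 133 of 180 named genes had one. The cyclic AMP response element (CRE), spelled TGACGTCA and the same on both strands, was found in 1.91% of all 27457 promoters, and in 0.758%, 4.11%, 3.34% and 4.24% of those of genes higher in L5 and lower in L4, the reverse, higher in both and lower in both. The AP-1 element bound by Jun, TGACTCA or TGAGTCA, which are the same site read from either strand, was in 4.53% of all promoters and in 3.03%, 4.11%, 3.46% and 3.62% of the classes. Promoters of all measured genes held the elements at 2.85% and 3.80%. The shares of the opposite classes rest on few promoters. CRE was in 1 of 132 for genes higher in L5 and lower in L4 and in 3 of 73 for the reverse. AP-1 was in 4 of 132 and in 3 of 73. The CRE window of Sst, which encodes somatostatin and was lower in both ganglia, is shown with the site in capitals, beside those of RT1-Ba, higher in both, and of the vesicle gene Vamp1 and the AP-1 window of Slc3a1, both lower in both. A match describes the letters only.
Sst (chr11:90461537-90461566, + strand): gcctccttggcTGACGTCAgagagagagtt
RT1-Ba (chr20:4576977-4577006, + strand): gctggcaactgTGACGTCAtcacaggggaa
Vamp1 (chr4:159698812-159698841, + strand): cctggagatttTGACGTCAtccacgaggcg
Slc3a1 (chr6:15394909-15394937, - strand): gttactgtagcTGAGTCAaccacctggtg
Sst read 343, 393, 395, 429 and 420 and 51.9, 38.5, 46, 40.2 and 40 in L5, and 240, 202, 208, 214 and 205 and 134, 117, 176, 159 and 140 in L4. Vamp1 gave effects of -1.75 and -0.43.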

How the data were processed

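The authors hybridised RNA of single DRGs to Affymetrix Rat230_2 arrays, and the deposited values are MAS 5 signal intensity per probe set on a linear scale (version not given in the sources used here), with each array scaled to one trimmed mean. No per-array scanner file was used. Of 31099 probe sets, 57 control probe sets were left out. The array annotation gave 1 gene symbol for 20826 of the 31042 tested, several for 436 and none for 9780, and 20760 were matched to a current RefSeq symbol, giving 14217 genes, of which 4525 have several probe sets.

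Values were log2 transformed after an offset of 16 and fitted with limma 3.58.1 (R 4.3.3) with an intensity trend. Each side effect was fitted to its own 10 arrays, and the difference of side effects to the 20 SNL arrays, each with Benjamini-Hochberg adjustment. The code was tested on simulated data. The number of arrays, 5 per group, limits the precision. The label numbers recur in all 4 SNL groups and were taken as the animals that gave both sides and segments; deviations of same-numbered arrays correlated between -0.06 and 0.04, and a fit with the rat as a block is an alternative.

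Genes were named by rule: above the median signal, with sides that did not overlap in either ganglion and signs that held under quantile normalization and equal medians, the 8 with the largest difference in each opposite class and the 8 with the largest smaller effect in each alike class. For changes in 1 ganglion the conditions on overlap and sign were applied to that ganglion only, with 5 genes each way. Cacna2d1, Scn11a and P2rx4, which the study measured, and up to 4 members per gene list with the largest called difference were added. The comparison and the 39 gene lists were chosen with earlier results of these data known. Alternatives were other offsets, scalings, filters, models and thresholds, the t-test at p under 0.001 that the methods name, and leaving out each array. Subtraction of the sham difference (1 contrast over 40 arrays) and leaving out genes with a second probe set called the other way were added after seeing the data.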

Additional observations from a re-analysis of the deposited data

Results flagged for a closer look

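For the genes named by class or measured by the study, 212 groups of 5 arrays were looked at for an array far from the other 4. Of these 16 had one, where chance flags about 1 in 20 groups. Genes named only as list members were not looked at. On ipsilateral L5 arrays this was Cxcl12 in rat 8 at 147 (group median 128.3), Rprm in rat 4 at 90.9 (group median 59.6), Npy in rat 4 at 2849 (group median 2483.3), Ccn2 in rat 48 at 286 (group median 264.6) and Phactr3 in rat 48 at 128 (group median 163.5). On contralateral L4 arrays this was Serinc5 in rat 48 at 551 (group median 485.6), Sox4 in rat 9 at 303 (group median 244.8), Calca in rat 18 at 3335 (group median 3709.3) and S100a8 in rat 9 at 605 (group median 555.6). On contralateral L5 arrays this was Kcnip3 in rat 8 at 255 (group median 175.3), Col3a1 in rat 9 at 691 (group median 740.9) and Sorl1 in rat 9 at 444 (group median 393.3). On ipsilateral L4 arrays this was Calca in rat 48 at 4182 (group median 5086.1), Dgkh in rat 9 at 1073 (group median 876.1), Ugt8 in rat 48 at 180 (group median 138.3) and Ostc in rat 4 at 612 (group median 529.7). The main values keep all arrays.

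The side effect differed between L5 and L4 by limma's test of the difference itself for 5953 probe sets, and 243 genes had opposite calls. L5 minus L4 (log2) was 2.03 for Cacna2d1, 1.80 for Plac8, 1.62 for Cbln2, 1.49 for Cxcl12, 1.43 for Pter, 1.38 for Igf1, 1.36 for Serinc5 and 1.28 for Sox4. On the other side it was -2.67 for Car3, -2.26 for Kcnip3, -1.99 for Rprm, -1.90 for Calca, -1.38 for Dgkh, -1.33 for Kcnip1, -1.32 for Dgkz and -1.24 for Slc22a17. The muscle genes that were high on the contralateral L5 arrays move with the value of Car3, and their part was not tested. The GAPDH 3′ to 5′ ratio was higher ipsilaterally in both ganglia, and its part in these values was not tested.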

How the results depend on the processing

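Across the offsets of 1 and 64, quantile normalization, equal medians and the filter on dim probe sets, the 5 counts (probe sets called in L5, in L4 and in L5 minus L4, genes with opposite calls, genes with alike calls) stayed within 1.5 times the reported 14638, 5938, 5953, 243 and 1990. The genes did not all stay: of the 243 with opposite calls, 176 were shared with quantile normalization and 82 with equal medians. With the rat as a replicate block the counts were 14350, 5672, 5809, 229 and 1908, and 206 of the 243 were shared. Among the named values the block ended 1 call, that of L5 minus L4 for Hrk, a gene of the BCL2 family. Without an intensity trend 125 genes had opposite calls. In one fit of all 40 arrays, 10507 probe sets were called in L4 and 461 genes had opposite calls. At an adjusted p under 0.01 the counts were 3559 in L4, 3825 in L5 minus L4, 110 opposite and 1222 alike. The methods' t-test at p under 0.001 gave 7387, 2510, 3340, 63 and 766, and after Benjamini-Hochberg adjustment 13327, 4853, 5568, 186 and 1581. Probe sets in place of genes gave 389 opposite and 4013 alike, and a limit of 1.5-fold in both ganglia gave 9 and 323. Leaving out single arrays gave 13541 to 14638, 4901 to 5938, 5382 to 6021, 195 to 245 and 1707 to 1978. Subtracting the sham difference, added after seeing the data, called 5625 probe sets, and leaving out genes with a second probe set called the other way, also added then, left 206 opposite and 1846 alike. Of 200 values of named genes, 158 lost no call and kept their sign under every alternative run. A called value changed sign for 1, Ngfr, from -0.43 to 0.12 with the sham difference subtracted, and a call was lost for 40 under at least 1 alternative. The call for H19, Rbm20 and Per1 was lost with the sham difference subtracted. The cause of these changes was not tested. Signals near background limit dim genes, whose effects the offset of 16 shrinks.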

Other observations

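Counts of called L5 minus L4 in the lists below stand beside 15.0% higher and 10.3% lower over all genes. Sema6a, a transmembrane semaphorin, gave an L5 effect of 1.92 and an L4 effect of -0.42, while Robo2, a guidance receptor, gave -2.04 and -0.39. Of 27 axon guidance genes L5 minus L4 was higher for 4 and lower for 4, near the shares of all genes. Of 21 genes of the BCL2 family and caspases it was higher for 7 and lower for 1, among them Bcl2a1 at 1.76 in L5 and 0.11 in L4 and Bcl2l11, which encodes the cell death protein Bim, at 1.35 and -0.13. Of 20 genes of the unfolded protein response it was higher for 3 and lower for 1, which is no more than among all genes. Chac1, a glutathione-degrading enzyme of that response, gave -0.10 in L5 and 0.71 in L4. Of 20 genes of cholesterol and fatty acid synthesis 6 were lower in both ganglia, beside 6.74% of all genes, among them Srebf2, the master regulator of sterol synthesis, at -0.64 and -1.08. Of 15 circadian clock genes Per1, Per3 and Hlf were higher in both and Nr1d2 was higher in L5 and lower in L4. Of 20 genes of the glucocorticoid and FoxO response 6 were higher in both, beside 7.26% of all genes, and Txnip, an inhibitor of thioredoxin, was higher in L5 (0.24) and lower in L4 (-0.54). Cdkn1a, a cell cycle inhibitor, gave 2.15 and 0.30.

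In sham rats, 765 probe sets were higher and 4 lower by at least 2-fold on the ipsilateral side of L5, and 177 were higher and 1 lower in L4. Across all probe sets the sham L5 and L4 effects correlated with r = 0.66, and the SNL and sham effects with r = 0.16 in L5 and 0.34 in L4, given as descriptions over probe sets that share arrays.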
